A study of Mus musculus with 4 samples.

Results

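The histone and DNA modifying enzymes described here are the genes of the deposited table whose symbols begin with *Dnmt*, or with *Hdac*, *Kdm*, *Tet*, *Sirt*, *Prdm*, *Setd*, *Ezh* or *Kat* and a number, as chosen by gene symbol alone. The rule found 76 of the 23997 genes of the table. The RNA-Seq experiment used cochleae of postnatal day 3 mice, of the strain C57BL/6 by the labels, and sorted their EGFP+ cells, which are called Lgr5+ progenitors when taken from Lgr5-EGFP-IRES-CreERT2 animals and Lgr6+ progenitors when taken from Lgr6-EGFP-IRES-CreERT2 animals. EGFP is driven by the *Lgr5* or the *Lgr6* gene in these mice, and the labels give no treatment for either group. The labels list 2 libraries per population, 4 in all, and the methods state that the RNA of each population was divided into fractions that served as replicates. The number of fractions in the methods is not the number of libraries in the labels, so how many replicates lie behind each combined value is not settled, and the replicates share 1 RNA extraction from pooled cells. The authors deposited 1 FPKM value, a fragment count scaled for transcript length and sequencing depth, for each gene in each population with the replicates combined. The spread between replicates is therefore not known, no test could be run, and every difference below is a difference between 2 values without a replicate check.

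These enzymes write and erase chemical marks on chromatin. Acetyltransferases add acetyl groups to histone tails and deacetylases remove them, methyltransferases with a SET domain add methyl groups and demethylases remove them, and DNA methyltransferases and Tet dioxygenases act on cytosine, mostly where it is followed by guanine (CpG). In the cochlea, histone deacetylation, Polycomb methylation and demethylation by Lsd1 have been studied as controls of the hair cell gene *Atoh1* and of the ability of supporting cells to become hair cells.

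Genes that reached 1 FPKM in either population or in both are called kept here, and they were 13436 in the whole table and 66 among the 76 enzymes. Differences are given on the log2(FPKM + 1) scale as the Lgr6+ value less the Lgr5+ value. A negative difference thus marks a gene that was higher in Lgr5+ cells, and adding 1 shrinks the differences of weakly expressed genes. A kept gene was counted when it was at least 1.5-fold apart on this scale. By this count 15 of the 66 enzymes were higher in Lgr5+ progenitors, or 22.7%, against 23.3% of all kept genes, and 13 were higher in Lgr6+ progenitors, or 19.7%, against 28.5% of all kept genes. In either direction the enzymes gave 28 of 66, or 42.4%, against 51.8% of all kept genes. At 2-fold, 6 enzymes were higher in Lgr5+ progenitors against 11.7% of all kept genes, and 4 were higher in Lgr6+ progenitors against 18.2%. Together these were 15.2% of the enzymes, against 29.9% of all kept genes. The count of enzymes thus lay below the background at each threshold, and a 1.5-fold difference by itself was common in this table. The median log2 difference was -0.08 for the kept enzymes and 0.03 for all kept genes.

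Most of the enzymes were expressed at moderate levels, and differences were more frequent among genes of low FPKM. The higher of the 2 FPKM values lay from 5 to under 20 for 38 enzymes, from 20 to under 100 for 17, and reached 100 for 1, *Hdac2*. Among the 38 enzymes from 5 to under 20, 18 were at least 1.5-fold apart, or 47.4%, against 51.2% of all kept genes at that level. Among the 17 from 20 to under 100, 7 were, or 41.2%, against 46.3%. Among the 10 kept enzymes under 5, 3 were, against 62.3%, and *Hdac2* was not, against 41.8% at its level. There were 61 enzymes that reached 1 FPKM in each population. Of these 14 were higher in Lgr5+ progenitors, against 22.5% of such genes, and 10 in Lgr6+ progenitors, against 21.4%, which gave 39.3% in either direction against 43.9%. Across the 66 kept enzymes the log2(FPKM + 1) values of the populations correlated with a Pearson r of 0.79 and across all kept genes with 0.87. These correlations run across genes of the same libraries and describe the table only.

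The direction of a small difference depended on how the columns were scaled. The FPKM values of all genes summed to 754163 in Lgr5+ progenitors and 627932 in Lgr6+ progenitors. Scaling both columns to the same sum moved the median of all kept genes by 0.24 toward Lgr6+ progenitors. The enzymes then split into 9 higher in Lgr5+ and 18 higher in Lgr6+ progenitors, or 13.4% and 26.9%. Of all kept genes, 16.1% and 37.3% were so, and these shares stand beside the later counts at the same sum. Among the enzymes counted, 66.7% were higher in Lgr6+ progenitors in place of 46.4%. Scaling to the same upper quartile left the counts at 15 and 13. A negative log2 difference within about 0.24 of 0 can therefore change direction with the same sum, whereas a positive difference becomes larger. Quantile normalization moved the median of all kept genes the other way, by -0.07. The median of the *Tet* genes then went from 0.02 to -0.20 and that of the *Hdac* genes from 0.0055 to -0.0252. Small positive differences can therefore change direction as well.

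**Figure D1:**
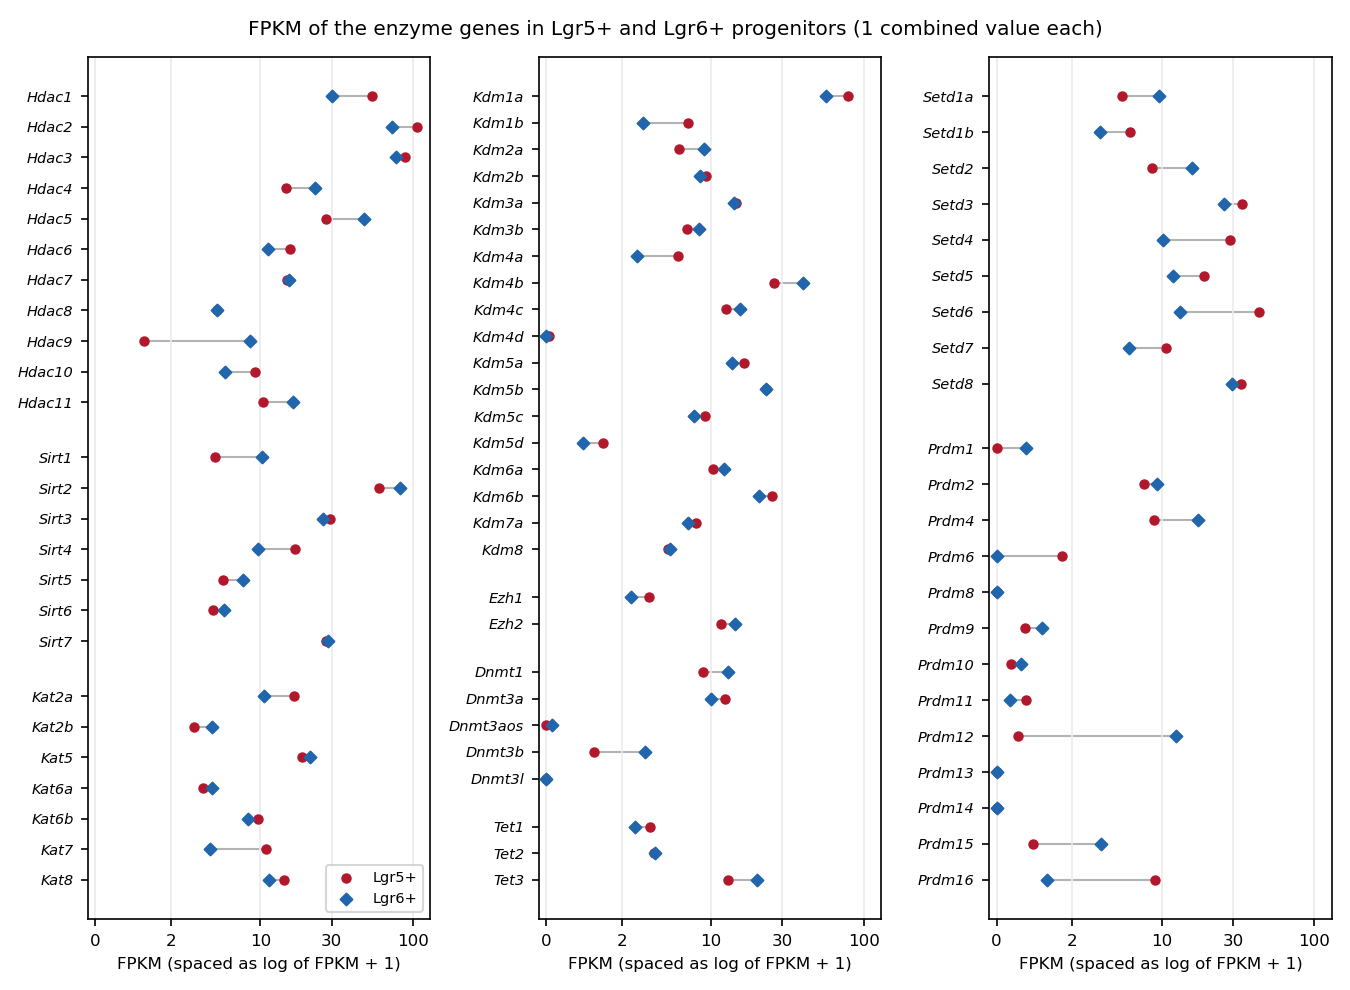
FPKM of 75 of the 76 genes in Lgr5+ progenitors (red circles) and Lgr6+ progenitors (blue diamonds), 1 combined value per population, on an axis spaced as the log of FPKM + 1. The longest lines belong to *Prdm12*, *Hdac9*, *Prdm16* and *Setd6*, and *Hdac2*, *Hdac3*, *Kdm1a* and *Sirt2* lie furthest to the right.

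Markers of supporting cells and of other cell types were measured in the same columns, and their values stand beside all results that follow. Their counts are of genes at least 1.5-fold apart, where 23.3% of all kept genes were higher in Lgr5+ and 28.5% in Lgr6+ progenitors. Of 16 genes of supporting cells and of the sorts, 6 were higher in Lgr5+ and 2 in Lgr6+ progenitors. *Sox2*, the transcription factor of supporting cells and their precursors, measured 140 FPKM in Lgr5+ against 54.8 FPKM in Lgr6+ progenitors. *Slc1a3* went the other way with 12.8 and 29.2, and *S100a1* at 2959 and 3177 and *Gjb2* at 177 and 157 were nearer to even. *Lgr5* itself had 9.65 and 24.99, so the gene that marks the Lgr5+ sort was higher in the Lgr6+ column. *Lgr6* had 2.06 and 2.90. Of 8 hair cell markers, 6 passed 1.5-fold toward Lgr6+ progenitors and 0 toward Lgr5+ progenitors, and their summed FPKM was 710 and 915. *Pvalb*, with the highest level of these markers in both populations, had 477 and 408. The summed FPKM of the markers of Schwann and glial cells was 52.3 in Lgr5+ and 244 in Lgr6+ progenitors, with *Pmp22* at 0.784 and 64.5 while *Erbb3* stayed at 0.304 and 0.209. That of macrophages was 3.31 and 94.97, with *Ptprc* at 0 and 0.00814, and that of endothelial cells was 2.43 and 26.1. Mesenchymal markers summed to 325 and 344, but 3 of 8 were higher in Lgr6+ progenitors, such as *Col1a2* at 15.8 and 90.2, and 1 in Lgr5+ progenitors, *Lum* at 179 and 100.97. Neuronal markers summed to 75.5 and 114, with 2 of 6 higher in each population, such as *Snap25* at 7.63 and 53.4 and *Syt1* at 31.03 and 17.2. Melanocyte markers summed to 0.507 and 3.85, with *Tyrp1* and *Mlana* at 0 in both populations. Red blood cell markers summed to 629 in Lgr5+ and 108 in Lgr6+ progenitors, with 4 of 5 higher in Lgr5+ progenitors, while *Alas2* had 4.36 and 6.64. The part of these cell types in the differences of the enzymes was not tested, and fewer cells of a type cannot be told apart from less RNA per cell in such bulk samples.

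Of the 11 classical histone deacetylases, 1 of 4 class I genes was at least 1.5-fold higher in Lgr5+ and 0 in Lgr6+ progenitors, and 3 of 4 class IIa genes were higher in Lgr6+ and 0 in Lgr5+ progenitors, beside 23.3% of all kept genes higher in Lgr5+ and 28.5% higher in Lgr6+ progenitors. Class I enzymes are mostly nuclear, and several of them form the catalytic core of the Sin3, NuRD, CoREST and NCoR corepressor complexes. *Hdac1* (chromosome 4, 129516103 to 129542646 in GRCm38) measured 55.1 FPKM in Lgr5+ against 30.1 FPKM in Lgr6+ progenitors, a log2 difference of -0.85. *Hdac2* (chromosome 10, 36974543 to 37001888) had 106 and 73.9, a log2 difference of -0.52 that did not reach 1.5-fold. *Hdac3*, the NCoR-bound enzyme, had 88.5 and 77.9, and *Hdac8* had 4.84 and 4.86. Class I summed to an FPKM of 255 in Lgr5+ and 187 in Lgr6+ progenitors.

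Class IIa holds signal-responsive deacetylases that shuttle between nucleus and cytoplasm and bind MEF2 factors. *Hdac5* (chromosome 11, 102195746 to 102230172) measured 27.4 FPKM in Lgr5+ against 48.5 FPKM in Lgr6+ progenitors, a log2 difference of 0.80. *Hdac4* (chromosome 1, 91932748 to 92148393) had 15.0 and 23.5, a log2 difference of 0.62, just past the threshold of 0.58. *Hdac9* (chromosome 12, 34047581 to 34917095) had 1.03 and 8.41, a log2 difference of 2.21 and an FPKM ratio of 8.13. *Hdac7* had 15.3 and 15.6. The sum over class IIa was 58.7 in Lgr5+ and 95.95 in Lgr6+ progenitors.

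As a share of the summed FPKM of the 11 deacetylases, class I made up 72.96% in Lgr5+ and 59.1% in Lgr6+ progenitors, and class IIa 16.8% and 30.3%. Such shares do not change when all values of a column are multiplied by the same factor. Other normalizations can change them and were not tried for the shares. The median log2 difference was -0.35 for class I and 0.71 for class IIa. After scaling to the same sum the medians were -0.09 and 0.96. The 2 enzymes of class IIb, *Hdac6*, the tubulin deacetylase of the cytoplasm, and *Hdac10*, a polyamine deacetylase, had FPKM values of 16.04 and 11.2 and of 9.16 and 5.54, and *Hdac10* was counted as higher in Lgr5+ progenitors with a log2 difference of -0.63. *Hdac11*, the only class IV enzyme, had 10.4 and 16.8, a log2 difference of 0.64.

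Among the 7 NAD-dependent sirtuins, *Sirt2* had the highest level and ranked first of all 76 genes in Lgr6+ progenitors. *Sirt2*, a mainly cytoplasmic deacetylase, measured 61.0 FPKM in Lgr5+ against 83.0 FPKM in Lgr6+ progenitors, a log2 difference of 0.44. *Sirt1* (chromosome 10, 63319004 to 63339035), the nuclear deacetylase of histones and p53, had 4.71 and 10.2, a log2 difference of 0.97. *Sirt4* (chromosome 5, 115478009 to 115484484), a mitochondrial sirtuin, had 17.1 and 9.56, a log2 difference of -0.78. *Sirt1* and *Sirt4* were the only sirtuins at least 1.5-fold apart, 1 in each direction. Among all kept genes, 23.3% were higher in Lgr5+ and 28.5% in Lgr6+ progenitors. After scaling to the same sum, 0 sirtuins were higher in Lgr5+ and 3 in Lgr6+ progenitors. *Sirt3* had 29.4 and 26.2 and *Sirt5* had 5.43 and 7.55.

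Of the 7 lysine acetyltransferases, 2 were higher in Lgr5+ and 0 in Lgr6+ progenitors, beside 23.3% and 28.5% of all kept genes. *Kat7* (chromosome 11, 95271852 to 95310246), the catalytic subunit of the HBO1 complex, had an FPKM of 10.9 and 4.30, a log2 difference of -1.16. *Kat2a* (chromosome 11, 100704745 to 100712467), the Gcn5 enzyme of the SAGA complex, had 16.9 and 10.5, a log2 difference of -0.64, while its paralog *Kat2b* had 3.19 and 4.46, a log2 difference of 0.38. *Kat5*, the Tip60 enzyme and the most abundant of the family, had 19.2 and 21.5. After scaling to the same sum, 1 acetyltransferase was higher in each population, and the family median was 0.02 in place of -0.22.

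**Figure D2:**
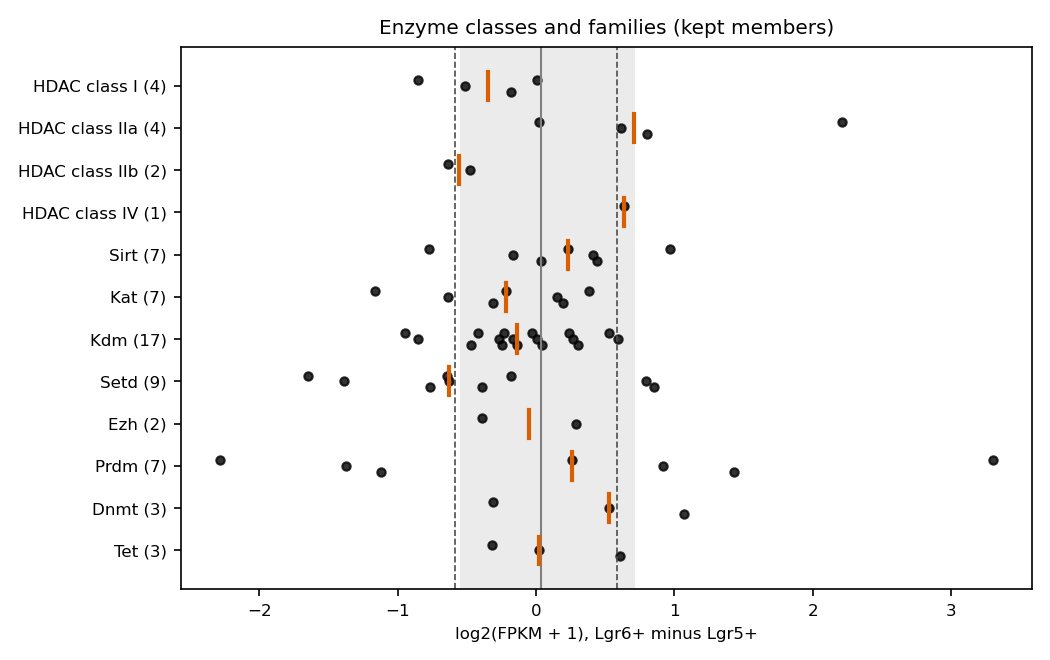
Log2 difference (Lgr6+ minus Lgr5+, log2(FPKM + 1)) of the 66 kept enzymes by class or family, with the number of kept members in brackets. Black points are genes, orange bars are medians, the grey band is the middle 50% of all kept genes from -0.54 to 0.71 with its median as a line, and dashed lines mark 1.5-fold. In class I 1 of 4 genes lies past 1.5-fold, on the Lgr5+ side, and in class IIa 3 of 4 do, on the Lgr6+ side.

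The lysine demethylases were the largest family. Of 17 kept *Kdm* genes, 2 were higher in Lgr5+ and 1 in Lgr6+ progenitors, beside 23.3% and 28.5% of all kept genes. The log2 differences of these demethylases ran from -0.95 to 0.59. *Kdm1a* (chromosome 4, 136550532 to 136602723), the Lsd1 enzyme that demethylates histone H3 at promoters and enhancers, was the most abundant with 79.4 in Lgr5+ and 57.1 in Lgr6+ progenitors, a log2 difference of -0.47. *Kdm1b* (chromosome 13, 47043498 to 47106221), its paralog, had 6.87 and 3.09, a log2 difference of -0.95, and its interval in the table is shared with *Dek*. *Kdm4a* (chromosome 4, 118137003 to 118180043) had 5.80 and 2.77, a log2 difference of -0.85, whereas *Kdm4b* (chromosome 17, 56326049 to 56402873) had 26.6 and 40.7, a log2 difference of 0.59 at the threshold itself. Both erase a heterochromatin mark on histone H3, so the paralogs of this group differed in opposite directions.

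The demethylases that oppose Polycomb lay close to even. *Kdm6b*, which removes the Polycomb mark from histone H3, had 25.6 and 21.1, a log2 difference of -0.27, and *Kdm6a*, its X-linked paralog, had 10.4 and 12.4, a log2 difference of 0.24. *Kdm5b*, an eraser of the active promoter mark, had 23.4 in each population. *Kdm5d*, the Y-linked member, had 1.30 in Lgr5+ and 0.719 in Lgr6+ progenitors. Other Y-linked genes were not lower in Lgr6+ progenitors, with *Ddx3y* at 6.73 and 11.4 and *Uty* at 0.852 and 4.45, and *Xist*, which is transcribed from the inactive X chromosome of females, had 26.2 and 72.0. Transcripts of *Xist* and of the Y-linked genes were thus present in both populations, and the labels do not give the sex of the animals.

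Among 9 *Setd* genes, 5 passed 1.5-fold toward Lgr5+ and 2 toward Lgr6+ progenitors, where 23.3% and 28.5% of all kept genes did. After scaling to the same sum these counts were 2 and 2, since *Setd1b*, *Setd5* and *Setd7* then lay at -0.41, -0.40 and -0.53. The sum over the family was 191 in Lgr5+ and 127 in Lgr6+ progenitors, and the median log2 difference of -0.63 became -0.40 after scaling to the same sum. *Setd6* (chromosome 8, 95715912 to 95719004), which methylates the NF-kB subunit RelA, had an FPKM of 44.3 and 13.5, a log2 difference of -1.65 and a ratio of 3.29. *Setd4* (chromosome 16, 93583460 to 93603815) had 28.5 and 10.3, a log2 difference of -1.39. *Setd7* (chromosome 3, 51515317 to 51567116), a monomethyltransferase of histone H3 and of other proteins, had 10.7 and 5.87, a log2 difference of -0.77, and *Setd5* (chromosome 6, 113077638 to 113153424) had 19.4 and 12.1, a log2 difference of -0.65.

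The *Setd* enzymes with the best known histone substrates did not follow 1 direction. *Setd2* (chromosome 9, 110532596 to 110618633), which trimethylates histone H3 along transcribed genes, measured 8.55 FPKM in Lgr5+ against 16.2 FPKM in Lgr6+ progenitors, a log2 difference of 0.85. *Setd1a* (chromosome 7, 127777388 to 127800119) and *Setd1b* (chromosome 5, 123142192 to 123168630) are alternative catalytic subunits of the SET1 complexes, which methylate histone H3 at active promoters. *Setd1a* had 5.14 and 9.65, a log2 difference of 0.79, and *Setd1b* had 5.93 and 3.48, a log2 difference of -0.63, so the order of these paralogs was exchanged between the populations. *Setd3*, an actin histidine methyltransferase, had 34.5 and 26.2, and *Setd8*, now named *Kmt5a* and a monomethyltransferase of histone H4, had 33.7 and 29.7.

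*Ezh2* and *Ezh1* are the alternative catalytic subunits of Polycomb repressive complex PRC2, which trimethylates histone H3 at silenced genes. *Ezh2* (chromosome 6, 47530273 to 47595030) measured 11.8 FPKM in Lgr5+ against 14.6 FPKM in Lgr6+ progenitors, a log2 difference of 0.29. *Ezh1* (chromosome 11, 101191114 to 101226450) had 3.50 and 2.43, a log2 difference of -0.39. *Ezh2* made up 77.1% of the summed FPKM of the pair in Lgr5+ and 85.8% in Lgr6+ progenitors, and neither gene was 1.5-fold apart.

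The *Prdm* genes, many of which are transcription factors with zinc fingers rather than active methyltransferases, held the largest difference in each direction. Only 7 of 14 were kept, 3 higher in Lgr5+ progenitors, 3 higher in Lgr6+ progenitors and *Prdm2* between them at 7.55 and 9.25. Over all kept genes, 23.3% were higher in Lgr5+ and 28.5% in Lgr6+ progenitors. *Prdm16* (chromosome 4, 154316124 to 154636873), known from brown fat and from neural and haematopoietic stem cells, measured 9.06 FPKM in Lgr5+ against 1.07 FPKM in Lgr6+ progenitors, a log2 difference of -2.28 and a ratio of 8.50, and its interval in the table is shared with the row of *5930403L14Rik*. *Prdm12* (chromosome 2, 31640036 to 31655795), known as a factor of pain-sensing neurons, had 0.365 and 12.5, a log2 difference of 3.30, the largest among the enzymes. *Prdm4* (chromosome 10, 85891967 to 85916945) had 8.86 and 17.6, a log2 difference of 0.92.

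Most other *Prdm* genes were near the lower limit of the table. *Prdm15* had 0.699 and 3.57, and *Prdm6* had 1.59 in Lgr5+ progenitors and was listed at 0 in Lgr6+ progenitors, so no ratio is given. *Prdm8*, *Prdm13* and *Prdm14* were listed at 0 in both populations, and *Prdm1*, *Prdm9*, *Prdm10* and *Prdm11* stayed under an FPKM of 1.

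The low values rest on few fragments. FPKM values of genes with a single annotated transcript, multiplied by transcript length less 200 bases, gathered most at a step of 0.128 in Lgr5+ and 0.0401 in Lgr6+ progenitors. In Lgr5+ progenitors 86 of 3248 values lay at the step, against 7.5 in a window of equal width beside it. In Lgr6+ progenitors 29 of 3589 did, against 9, so that step is less clear. If 1 step is 1 fragment, an FPKM of 1 stands for 7.81 fragments per kb in Lgr5+ and 24.9 in Lgr6+ progenitors. With the longest annotated transcript, the values of *Prdm12* then correspond to about 6 and 706 fragments, those of *Hdac9* to 42 and 1091, and those of *Prdm16* to 595 and 223. For *Dnmt3b* the numbers are 32 and 327. Whether a step of the combined values is a fragment of a single library is not known, so these numbers carry no interval.

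Promoter windows are printed for the pair of genes with the largest difference in each direction. The genes were taken among those that reached 5 FPKM and have a window in the RefSeq-derived table (GRCm38.p6). Which start these cells use was not measured, and the bearing of the sequences on the differences was not tested. Each window holds 300 bases, 250 before and 50 after the annotated start, 5′ to 3′ on the strand of the gene, with CpG dinucleotides, the substrate of the Dnmt and Tet enzymes, in capitals. The windows are chr4:154636824-154637123 on the minus strand for *Prdm16*, chr8:95715663-95715962 on the plus strand for *Setd6*, chr2:31639787-31640086 on the plus strand for *Prdm12* and chr12:34917046-34917345 on the minus strand for *Hdac9*.
Prdm16: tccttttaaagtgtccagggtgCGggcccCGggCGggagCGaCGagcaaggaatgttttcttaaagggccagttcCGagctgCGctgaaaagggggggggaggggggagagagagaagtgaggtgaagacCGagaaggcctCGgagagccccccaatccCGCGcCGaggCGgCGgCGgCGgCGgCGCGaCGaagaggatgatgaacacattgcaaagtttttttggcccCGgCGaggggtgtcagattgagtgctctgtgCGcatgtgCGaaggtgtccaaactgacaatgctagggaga
Setd6: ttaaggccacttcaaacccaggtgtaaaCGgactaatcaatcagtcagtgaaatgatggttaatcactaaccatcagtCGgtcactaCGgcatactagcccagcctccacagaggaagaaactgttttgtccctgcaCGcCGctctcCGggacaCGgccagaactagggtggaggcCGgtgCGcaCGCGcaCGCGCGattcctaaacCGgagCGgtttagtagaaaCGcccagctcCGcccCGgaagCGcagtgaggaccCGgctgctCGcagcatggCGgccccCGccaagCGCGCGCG
Prdm12: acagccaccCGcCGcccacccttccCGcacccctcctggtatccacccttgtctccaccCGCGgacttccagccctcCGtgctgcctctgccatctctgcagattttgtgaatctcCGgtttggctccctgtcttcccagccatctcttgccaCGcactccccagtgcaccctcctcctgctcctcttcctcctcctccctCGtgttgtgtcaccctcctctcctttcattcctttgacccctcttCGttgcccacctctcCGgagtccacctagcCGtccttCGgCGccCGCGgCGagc
Hdac9: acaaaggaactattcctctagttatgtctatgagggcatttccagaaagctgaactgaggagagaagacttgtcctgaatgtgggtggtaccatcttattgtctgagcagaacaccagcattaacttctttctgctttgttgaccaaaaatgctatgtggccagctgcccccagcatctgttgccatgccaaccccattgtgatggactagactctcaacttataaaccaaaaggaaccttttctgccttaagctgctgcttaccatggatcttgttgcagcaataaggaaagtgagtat
The windows of *Prdm16*, *Setd6* and *Prdm12* hold 24, 28 and 17 CpG, counts reached or passed by 19.96%, 14.02% and 31.9% of the windows of all 27025 genes. The *Hdac9* window, at the outermost of its 2 annotated starts, holds 0 CpG and 1 match to TATAAA, a motif found on either strand in 14.2% of all windows, and the other start has 3 CpG and 0 matches. CCAAT, found on either strand in 38.0% of all windows, has 1 match in *Prdm16* and 0 in the other 3. These are matches of letters only, and no methylation or chromatin was measured here.

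**Figure D3:**
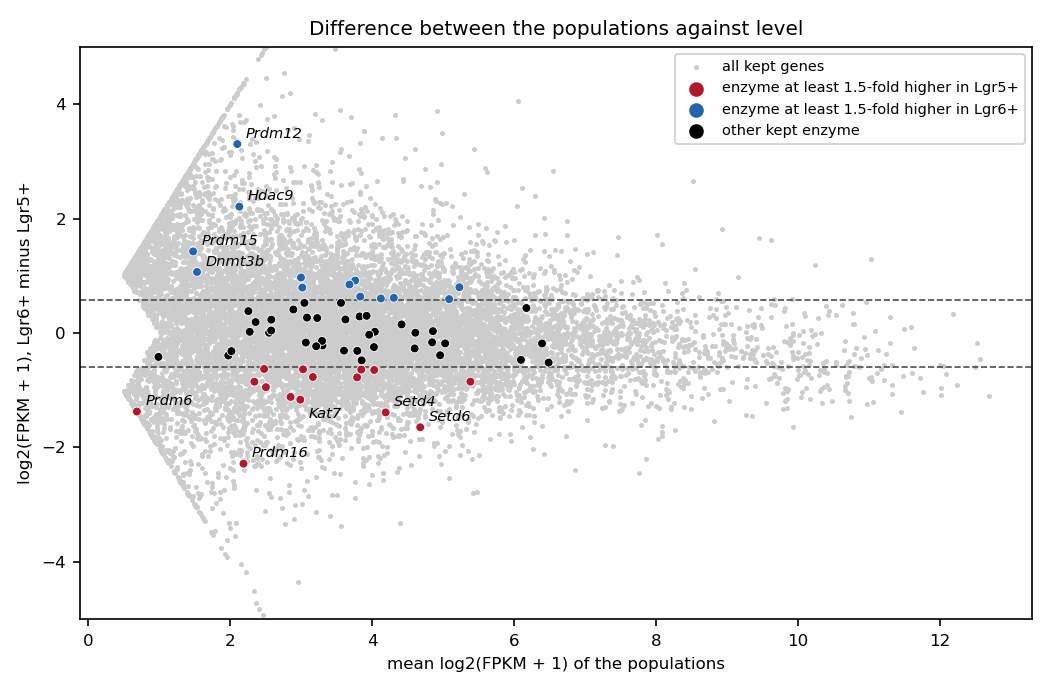
Log2 difference (Lgr6+ minus Lgr5+) against the mean log2(FPKM + 1) for all kept genes (grey) and the kept enzymes, in red where at least 1.5-fold higher in Lgr5+ progenitors, in blue where at least 1.5-fold higher in Lgr6+ progenitors and in black otherwise. Dashed lines mark 1.5-fold, names are given to 9 of the 10 enzymes at least 2-fold apart, and 19 of all kept genes lie beyond the plotted range of 5. The enzymes lie within the cloud of all genes.

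On the side of DNA methylation, 3 of 5 *Dnmt* rows were kept. *Dnmt1* (chromosome 9, 20907205 to 20959888), which copies methylation after replication, measured 8.83 FPKM in Lgr5+ against 13.2 FPKM in Lgr6+ progenitors, a log2 difference of 0.53. *Dnmt3a* (chromosome 12, 3806979 to 3914443), a de novo methyltransferase, had 12.5 and 9.93, a log2 difference of -0.31. *Dnmt3b* (chromosome 2, 153649448 to 153687730), the other de novo enzyme, had 0.999 and 3.19, a log2 difference of 1.07. It was the only *Dnmt* gene at least 1.5-fold apart, beside 28.5% of all kept genes higher in Lgr6+ progenitors. After scaling to the same sum 2 *Dnmt* genes were higher in Lgr6+ progenitors, and with at least 1 FPKM required in each population 0 were. *Dnmt3a* made up 56.02% of the summed FPKM of the 3 kept *Dnmt* genes in Lgr5+ and 37.8% in Lgr6+ progenitors, and *Dnmt1* 39.5% and 50.1%. *Dnmt3l*, the inactive cofactor of germ cells, was listed at 0 in both populations, and *Dnmt3aos*, which shares its interval with *Dnmt3a*, had 0 and 0.0985.

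The 3 Tet dioxygenases, which oxidise methylated cytosine, were led by *Tet3* in both populations. *Tet3* (chromosome 6, 83362373 to 83441678) measured 13.1 FPKM in Lgr5+ against 20.5 FPKM in Lgr6+ progenitors, a log2 difference of 0.60. *Tet1* (chromosome 10, 62804569 to 62880014) had 3.52 and 2.63, a log2 difference of -0.32, and *Tet2* (chromosome 3, 133463676 to 133544390) had 3.80 and 3.88. *Tet3* made up 64.2% and 75.9% of their summed FPKM. Of 15 kept partners and readers of DNA methylation, 4 were higher in Lgr5+ and 2 in Lgr6+ progenitors. The shares of all kept genes were 23.3% and 28.5%. *Tdg*, the glycosylase that excises the oxidised bases, had 44.0 and 21.6, a log2 difference of -0.99. *Gadd45g* had 132 and 86.8, *Idh2* had 106 and 70.0, *Zbtb38* had 8.71 and 4.47, and *Gadd45a* had 9.56 and 18.3.

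The partners of these enzymes were taken from lists chosen by function with earlier results of these data known. Their counts stand beside 23.3% of all kept genes higher in Lgr5+ and 28.5% higher in Lgr6+ progenitors. The shares of the deacetylase complexes, PRC1 genes, KMT2 list, bromodomain readers and arginine methyltransferases below lie under both. Of 24 genes of deacetylase complexes, 5 were higher in Lgr5+ and 3 in Lgr6+ progenitors. All 3 *Mta* genes, the scaffolds of NuRD, were among the 5, with *Mta1* at 73.5 and 34.3, *Mta2* at 29.2 and 15.3 and *Mta3* at 34.3 and 20.9, and *Gatad2b*, also of NuRD, had 22.3 and 11.5. Other NuRD genes were nearer to even, with *Chd4* at 77.6 and 64.9 and *Mbd3* at 73.4 and 72.0, and *Mbd2* was higher in Lgr6+ progenitors with 33.3 and 61.7. *Sin3b* was the most abundant of the list with 203 and 152. *Rcor2*, a CoREST subunit that binds Lsd1, had 2.11 and 10.5, a log2 difference of 1.89, while *Rcor1* had 24.1 and 18.8. *Tbl1x*, of the NCoR complex, had 18.1 and 6.91.

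Of 8 kept PRC2 partners, 2 were higher in each population, and 0 in Lgr5+ and 3 in Lgr6+ progenitors after scaling to the same sum. *Eed* and *Rbbp4* were higher in Lgr5+ progenitors, with 15.0 and 9.29 and with 23.0 and 14.7, and *Rbbp7* and *Mtf2* were higher in Lgr6+ progenitors, with 38.0 and 60.2 and with 15.0 and 25.1. Of 18 PRC1 genes, 4 were higher in each population, led by *Phc2* with 95.1 and 44.2. *Pcgf2* was also higher in Lgr5+ progenitors, with a log2 difference of -0.997, and *Rnf2*, *Phc1* and *Pcgf6* were higher in Lgr6+ progenitors, with 0.64, 0.62 and 0.76. *Pcgf5*, which defines a variant of PRC1, had 8.18 and 0.613, a log2 difference of -2.51. The 4 enzymes *Kmt2a* to *Kmt2d* of the KMT2 methyltransferase complexes were all less than 1.5-fold apart, and *Men1*, their partner menin, had 16.9 and 8.44. In the whole list of 13 genes 2 were higher in Lgr5+ and 1 in Lgr6+ progenitors, the others being *Ncoa6* with 30.1 and 16.8 and *Rbbp5* with 13.9 and 23.7, and *Dpy30* had the highest level with 375 and 298.

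Among 18 kept methyltransferases outside the 9 families, 7 were higher in Lgr5+ and 0 in Lgr6+ progenitors, or 6 and 0 after scaling to the same sum. *Smyd2* had an FPKM of 85.0 and 42.1, *Smyd5* had 18.3 and 3.68, *Dot1l*, which methylates the globular domain of histone H3, had 13.8 and 5.73, and the others were *Smyd3*, *Smyd4*, *Setmar* and *Suv39h2*. The heterochromatin enzymes *Ehmt1* and *Ehmt2* had 28.6 and 34.0 and 51.4 and 47.1. Of 14 bromodomain readers of acetylated histones, 3 were higher in Lgr5+ and 0 in Lgr6+ progenitors, with *Brd2* at 56.9 and 25.1, *Brd3* at 63.4 and 35.1 and *Brpf1* at 24.8 and 16.05. After scaling to the same sum 1 reader was higher in Lgr5+ progenitors, and the median of the readers was -0.14 in place of -0.39. Of 12 acetyltransferases outside the *Kat* family, 4 were higher in each population, among them *Crebbp* with 19.5 and 11.02 and *Hat1* with 10.8 and 36.9. *Taf1*, *Elp3* and *Mcm3ap* had log2 differences of -0.80, -1.13 and -1.04, and *Naa60*, *Gtf3c4* and *Atf2* had 1.26, 1.09 and 1.00, whereas the *Crebbp* paralog *Ep300* had 4.73 and 5.71. Of 9 arginine methyltransferases and partners, 1 was higher in Lgr5+ and 2 in Lgr6+ progenitors, *Prmt3* among the latter with 7.71 and 13.8, and *Prmt2* had the highest level with 22.8 and 16.1.

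**Figure D4:**
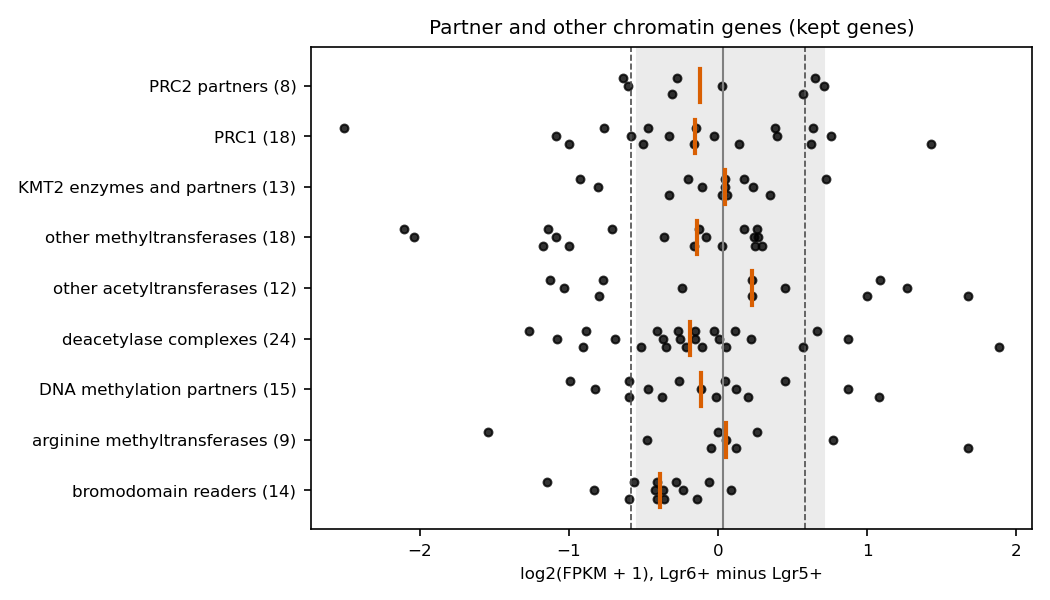
Log2 difference (Lgr6+ minus Lgr5+, log2(FPKM + 1)) of kept partner and other chromatin genes by list, with the number of kept genes in brackets. Points are genes, orange bars are medians, the grey band is the middle 50% of all kept genes with its median as a line, and dashed lines mark 1.5-fold. The median is lowest for the bromodomain readers at -0.39 and highest for the other acetyltransferases at 0.23.

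*Dnmt1*, *Ezh2* and *Setd8* are known to be expressed most in dividing cells, so the genes of DNA replication are given beside them. Of 19 kept replication genes, 5 were higher in Lgr5+ and 5 in Lgr6+ progenitors, near the 23.3% and 28.5% of all kept genes. *Pcna*, the polymerase clamp that recruits *Dnmt1*, had 25.3 and 57.0, *Mki67* had 0.626 and 3.41, and *Mcm2* had 11.9 and 3.42. *Gins2* had 29.3 and 13.4, and *Fen1* had 2.37 and 7.48. *Uhrf1*, which guides *Dnmt1* to replicated DNA, had 3.55 and 2.29. The part of cell division in the values of *Dnmt1*, *Ezh2* and *Setd8* was not tested.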

How the data were processed

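The libraries were prepared by the authors with a SMART-Seq v4 low-input kit and sequenced as paired-end reads. Per the labels and the methods, reads were trimmed with Trimmomatic, mapped with TopHat and quantified with Cufflinks, with versions not given in the sources used here. The FPKM values that the authors deposited combine the replicates of a population into 1 value, so limma, planned for values per sample, was not run. The table also holds the authors' fold changes, *p*-values and *q*-values, which were not used. The methods name mm9 and the processing notes mm10. The intervals of 73 of 76 enzymes had a start or end within 2000 bases of GRCm38.p6, and 4 of 69 of NCBIM37, so positions are given as GRCm38.

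Genes with FPKM of at least 1 in either population were kept, and differences were taken on log2(FPKM + 1) with a 1.5-fold threshold. Counts were not analysed here, and the paper gives the number of reads only as a range over its samples. The depth of each library is therefore not known. The enzymes, lists and rules were chosen with earlier results of these data known. Values were given for enzymes at least 1.5-fold apart with an FPKM of at least 5, for the most abundant of each family, for families of 4 or fewer, for 11 genes such as *Hdac1* and *Ezh2* whatever their values, and for partner genes at least 1.5-fold apart with an FPKM of at least 5 or with the highest level of their list. The promoter pairs, *Prdm6*, *Prdm15*, *Dnmt3b* and other genes outside this rule were named after their values were seen. Some genes that the rule takes are not reported here. Promoter windows matched 62 of 76 genes. Of 18 enzymes the interval is shared with another row, and whether counting used strand is not given in the sources used here, so overlapping transcripts cannot be told apart. Scripts ran in Python 3.11.15 with pandas 2.3.3 and numpy 2.4.6, with matplotlib 3.10.9 for the plots and scipy 1.17.1 for the correlations, and were tested on simulated data.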

Additional observations from a re-analysis of the deposited data

How the results depend on the processing

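Tried were no filter, a pseudocount of 0.1, a minimum FPKM of 5, a minimum of 1 in each population, quantile normalization, the same upper quartile, the same sum of FPKM and a 2-fold threshold. Counts ran from 10 to 18 enzymes higher in Lgr6+ progenitors and from 9 to 17 higher in Lgr5+ progenitors at 1.5-fold. The shares of all genes kept under these settings ran from 17.4% to 37.3% and from 13.5% to 26.5%. Without a filter the shares of the enzymes were above those of all genes, with 18.4% against 17.4% toward Lgr6+ and 19.7% against 13.5% toward Lgr5+ progenitors. The 2-fold threshold left 4 and 6. With the same sum of FPKM, the enzymes higher in Lgr5+ cells numbered 9 and the median log2 difference over all kept enzymes was 0.22 in place of -0.08. Without a filter that median was 0. Of 25 named enzymes at least 1.5-fold apart, 19 stayed so under every alternative in which they were kept and 0 turned direction. *Hdac10*, *Kat2a*, *Setd1b*, *Setd5*, *Setd7* and *Sirt4* fell under 1.5-fold with the same sum of FPKM, from -0.53 to -0.39. No paired analysis was possible because the deposited table holds 1 combined value per population, and leaving out each replicate was not run for the same reason.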

Other observations

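The promoters of the enzymes were rich in CpG. Over 62 enzymes with a window, the median was 19.5 CpG per 300 bases, against 7 over the windows of all 27025 genes. The 53 kept enzymes had a median of 21 and the 9 that were not kept had 12. The 10 enzymes at least 1.5-fold higher in Lgr5+ progenitors with a window had a median of 20, and the 12 higher in Lgr6+ progenitors had 26.5. Many genes of the table are not expressed in these cells, so these medians describe the windows and were not tested.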
